A study of Boehmeria nivea with 12 samples.

Results

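The water culture response of stems of the ramie cultivar Zhongzhu no 2 (Z2) was described from 6 RNA-Seq libraries of the 12 in the series. The members were fixed by label: 3 libraries from stem cuttings kept in tap water for 10 days (Z2T1 to Z2T3) and 3 from stems without water culture (Z2CK1 to Z2CK3). The other 6 libraries come from the cultivar Huazhu no 4 (H4), treated in the same way (H4T and H4CK). Each cutting stood in a flask with 4 to 5 cm of its stem under water, and the submerged segment, which carried root primordia, was taken for Z2T. Z2CK stems were cut from the mother plants, so that Z2T differed from Z2CK also in having been detached from the plant for 10 days, and these effects cannot be told apart. Which part of the stem was taken for Z2CK is not stated, so that a difference in position cannot be told apart either. Each replicate pooled 5 plants, and all plants were grown in a greenhouse.

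Ramie is a bast fibre crop that is propagated by cuttings. Adventitious roots are roots that arise from stems or other organs that are not roots. In a cutting, cells near the vascular tissue return to division, form a root primordium and push it through the stem surface, and auxin is a central hormone in this process. The deposited table lists expression by Trinity unigene, a group of transcripts assembled from reads without a genome, and does not pair the identifiers with gene names. Pathways, gene families and tissue markers could therefore not be examined, nor could the tissue be checked by marker genes, and the response is described by its size, its direction and the expression level at which it occurred. In RNA of mixed stem tissue, fewer cells of a type and less RNA per cell cannot be told apart.

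Values are FPKM, fragment counts scaled to the length of the unigene and to the size of the library. Of 66,881 unigenes listed, 26,741 (40.0%) reached an FPKM of 1 in 2 or more of the 6 Z2 libraries, and these were compared. Just inside that limit, 3955 unigenes reached an FPKM of 1 in exactly 2 libraries, with a median highest value of 2.77. Just outside it, 18,347 unigenes reached it in 1 library only, with a median highest value of 4.33. Fold changes were taken on log2(FPKM + 1), Z2T relative to Z2CK, on which the changes of weakly expressed unigenes come out too small. A unigene was a DEG where the fold change was 2 or more in either direction and the p-value from limma, adjusted by Benjamini and Hochberg's method over all 26,741 unigenes, was under 0.05.

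The library labelled Z2T1 stood apart from the other Z2T libraries. Across the 26,741 unigenes, which are not independent replicates, Pearson's r of its log2 values was 0.802 with Z2T2 and 0.804 with Z2T3, while Z2T2 and Z2T3 had an r of 0.954 with each other. With the Z2CK libraries Z2T1 had an r of 0.872 to 0.893, and with the libraries labelled H4CK2 and H4CK3 of 0.971 and 0.966. The 3 Z2CK libraries had an r of 0.925 to 0.941 among themselves. The median absolute log2 difference of a unigene was 0.215 between Z2T2 and Z2T3, 0.265 to 0.303 between Z2CK libraries, and 0.604 and 0.65 between Z2T1 and the other Z2T libraries. In H4, the r of the library labelled H4CK1 was 0.957 with Z2T2 and 0.948 with Z2T3, against 0.835 and 0.837 with H4CK2 and H4CK3. Z2T1 and H4CK1 may have been exchanged, which was not tested. In that case the values over all 6 libraries of either label would mix both cultivars as well as treated and untreated stems. Differences between Z2T1 and Z2CK would then also hold a difference of cultivar. All labels were kept as deposited, and the comparison is given with and without Z2T1, except where a result describes the DEGs called without it. Since Z2T1 was left out because of its own values, the p-values of the fit without it are a description of 5 libraries and not independent support.

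The number of unigenes listed above 0 was also uneven within Z2T. It was 42,291 in Z2T2 and 37,887 in Z2T3, but 30,586 in Z2T1, close to the 30,966 to 31,464 of Z2CK. The table gives FPKM without read counts, so that the depth behind single values cannot be read from it. The most frequent ratio of low values put the depth relative to Z2CK1 at 1.04 in Z2CK2, 0.991 in Z2CK3, 1.18 in Z2T1, 1.39 in Z2T2 and 1.17 in Z2T3. These ratios rested on 24 to 87 unigenes a library. Z2T1 was thus as deep as Z2T3 by this estimate although fewer unigenes were listed above 0 in it. The paper lists clean reads for each library, and there Z2T1 had the most of the Z2 libraries and Z2CK1 the fewest. Z2T2 had fewer clean reads than Z2T1 in that list, which the estimate of 1.39 for Z2T2 does not match. The part of depth in the results below was not tested.

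With all 6 libraries, 0 unigenes (0.0% of those tested) were DEGs higher in Z2T and 2 (0.00748%) were DEGs lower in Z2T. The smallest adjusted p from limma was 0.0366, and without adjustment 3737 unigenes (14.0%) had a p under 0.05. No unigene passed the stricter thresholds of the study's methods, a change of 2 or more on the log2 scale at an adjusted p under 0.001 (0.0% in each direction). The study used DESeq2 on reads mapped to a genome, and its results section gives the limit as a fold change of 2. Its DEG counts are therefore not comparable with those given here. Log2 fold changes had a median standard error of 0.35. The count of DEGs was 0 in both directions when any library other than Z2T1 was left out, so that only leaving out Z2T1 raised it. When limma weighted libraries by their agreement with their group, Z2T1 received a weight of 0.141, Z2T2 of 3.8 and Z2T3 of 1.35. Those of the Z2CK libraries were 0.898 to 1.42. With these weights 2932 unigenes were DEGs higher and 1556 DEGs lower in Z2T. The weights came from the same values that were tested, so that these counts are not independent support.

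Without Z2T1, 2429 unigenes (9.08%) were DEGs higher in Z2T and 1209 (4.52%) were DEGs lower in Z2T, at a median standard error of 0.26. Of these 3638 DEGs, 66.8% were higher. Without a filter 936 were higher and 509 lower. The direction turned to 1029 higher and 1141 lower where 3 of the 6 Z2 libraries had to reach an FPKM of 1. It also turned, to 835 higher and 1065 lower, where a Z2CK library had to reach it, a filter added after the data were seen. A unigene at 1 or more only in Z2T2 and Z2T3 fails both of these filters. One at 1 or more only in the 3 Z2CK libraries passes both, so that the turn is partly built in. By the study's thresholds 65 unigenes (0.243%) were higher and 7 (0.0262%) lower, and the smallest adjusted p from limma was 0.000495. Without a limit on the fold change 4614 unigenes (17.3%) had an adjusted p under 0.05 from limma, and 8735 (32.7%) a p under 0.05 before adjustment. Both DEGs of the fit of all 6 libraries were among the 3638. After quantile normalization the split was 2001 higher and 1594 lower, and on the TPM scale, with the same sum in every library, 2246 higher and 1534 lower. The number of DEGs that were higher was 1517 when Z2CK1 was also left out, 1159 without Z2CK2 and 1599 without Z2T3. The number that were lower was 692 without Z2CK2, 239 without Z2T2 and 187 without Z2T3, the last pair of fits with a single Z2T library assumed to vary like Z2CK.

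**Figure D1:**
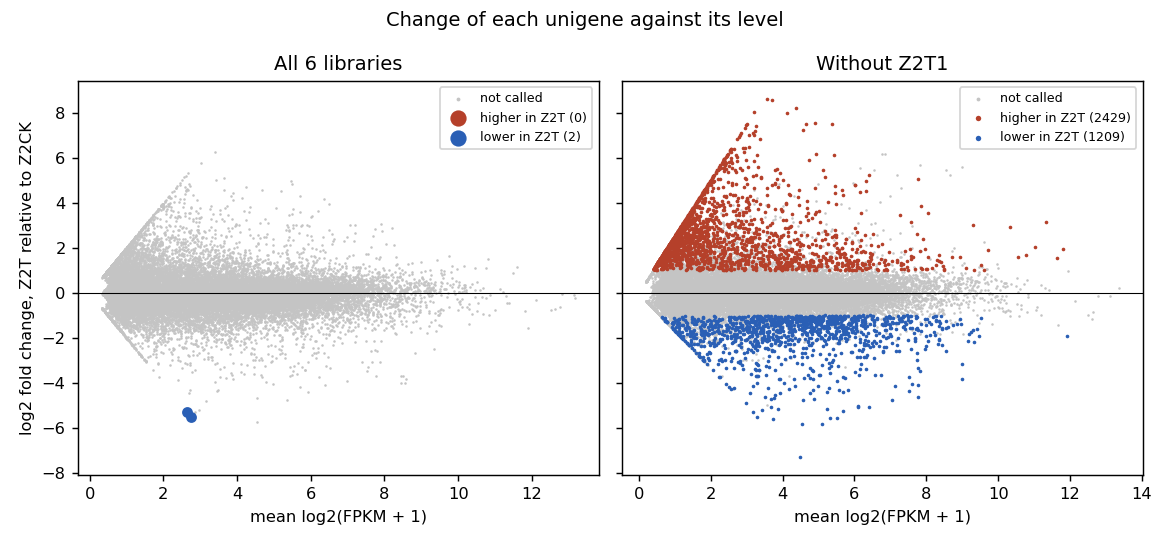
Log2 fold change of each of 26,741 unigenes, Z2T relative to Z2CK (vertical axis), against its mean log2(FPKM + 1) (horizontal axis), for all 6 libraries and without Z2T1; each point is a unigene and colours mark DEGs by limma. With all 6 libraries 2 unigenes are marked, both lower in Z2T, and without Z2T1 2429 are marked higher and 1209 lower; straight edges on the left are unigenes listed at or near 0 in one group.

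Most unigenes changed little in either set of libraries. Over all 6 libraries the median log2 fold change was -0.04, the median absolute log2 fold change 0.37, and 60.4% of unigenes lay within 0.5 of no change on the log2 scale. From the 5th to the 95th percentile the values ran from -1.18 to 1.53. Without Z2T1 the median was 0.02, the median absolute value 0.42 and the share within 0.5 was 55.6%, with the same percentiles at -1.30 and 2.15. The upper tail was longer than the lower tail in both.

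At any p, 2680 unigenes (10.0%) were at least 2-fold higher and 1901 (7.11%) at least 2-fold lower in Z2T with all 6 libraries. Without Z2T1 these counts were 3783 (14.1%) and 2286 (8.55%), and after quantile normalization 3224 and 3038. Where 3 libraries had to reach an FPKM of 1, the direction turned with all 6 libraries, to 1420 higher and 1666 lower, and was 2180 higher and 2016 lower without Z2T1. Up to 16-fold, the share in the upward direction grew with the size of the change. Over all 6 libraries 58.5% of the unigenes changed at least 2-fold were higher in Z2T, 68.0% of those changed at least 4-fold, 71.7% of those changed at least 8-fold and 74.3% of those changed at least 16-fold. Without Z2T1 the shares were 62.3%, 76.5%, 82.0% and 84.2%, and at 32-fold 125 unigenes were higher and 17 lower, or 88.0% higher. At 32-fold only 8 unigenes were higher and 5 lower when Z2T1 was included, or 61.5% higher. Among DEGs without Z2T1 the median change was 3.94-fold for those that were higher and 2.98-fold for those that were lower.

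The groups were also compared by whether their values overlapped, without a model. The 3 Z2T values lay above the 3 Z2CK values for 2221 unigenes (8.31%) and below them for 3587 (13.4%). This order of directions was opposite to that of the 2-fold changes, and it turned with the scaling: it was 3633 above and 3275 below after quantile normalization, 2945 and 2918 after median-of-ratios scaling, and 1814 and 4491 on the TPM scale. Without Z2T1 the groups did not overlap for 7201 unigenes (26.9%) that were higher and 6373 (23.8%) that were lower in Z2T, where 2 values against 3 separate more readily by construction. That order also turned, to 6431 and 8250 after quantile normalization and to 5810 and 8166 on the TPM scale. Small shifts across many unigenes thus had no direction that held under every scaling.

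Among all tested unigenes, changes of at least 2-fold were more frequent at low expression and their direction varied with the level. The frequency at low expression changed with the filter, as given further below. The tested unigenes were divided into 5 equal parts by their mean over both groups. For all 6 libraries the lowest part, with mean FPKM between 0.262 and 1.25, had 1045 unigenes (19.5%) at least 2-fold higher and 315 (5.89%) at least 2-fold lower in Z2T. The highest part, from 34.4 upwards, had 201 (3.76%) higher and 332 (6.21%) lower. Upward changes were 76.8% of the changed unigenes in the lowest part and 37.7% in the highest.

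Without Z2T1 the pattern was as follows. In the lowest part, with mean FPKM from 0.149 to 1.34, 1366 unigenes (25.5%) were at least 2-fold higher and 380 (7.11%) lower. In the middle part, from 4.51 to 14.0, 637 were higher and 543 lower. In the highest part, from 34.9 upwards, 341 (6.38%) were higher and 469 (8.77%) lower. DEGs followed the same course, with 1009 higher and 54 lower in the lowest part, 347 and 322 in the middle, and 208 and 388 in the highest. The median standard error fell from 0.39 in the lowest part to 0.16 in the highest, so that a change of a given size was more precisely measured at high expression.

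**Figure D2:**
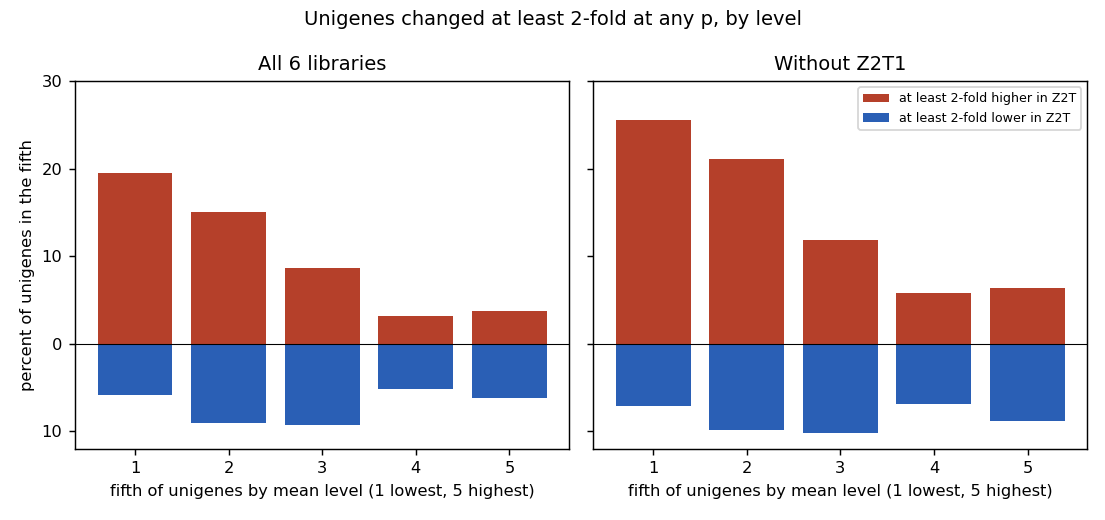
Percent of unigenes at least 2-fold higher (upward bars) and at least 2-fold lower (downward bars) in Z2T at any p, in 5 equal parts of the 26,741 unigenes by mean level, for all 6 libraries and without Z2T1. Upward bars shrink from 19.5% to 3.76% and from 25.5% to 6.38% between the lowest and the highest part, while downward bars stay between 5.18% and 10.2%.

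The asymmetry also showed in how unigenes entered the comparison. The filter counted Z2CK and Z2T libraries alike. Without it, 8607 unigenes were at least 2-fold higher and 2820 at least 2-fold lower with all 6 libraries, and 12,725 and 3208 without Z2T1. A unigene below an FPKM of 1 in every Z2CK library could pass the filter only through Z2T, and 2086 unigenes did so, against 858 that passed with every Z2T library below 1. Of the 2429 DEGs higher in Z2T without Z2T1, 1448 were below 1 in all Z2CK libraries and 981 were not. Of the 1209 DEGs lower in Z2T, 65 were below 1 in all 3 Z2T libraries and 163 in both Z2T2 and Z2T3.

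Among the 22,899 unigenes at an FPKM of at least 1 in a library of each group, Z2T1 left aside, the DEGs were nearly balanced, with 981 (4.28%) higher and 1046 (4.57%) lower in Z2T. At any p, 2066 (9.02%) of these were at least 2-fold higher and 1653 (7.22%) lower. For changes of at least 8-fold the counts were 231 higher and 94 lower, and 86 higher and 71 lower with all 6 libraries. When Z2T1 was included, the 23,797 unigenes at 1 or more in a library of each group held 1293 (5.43%) at least 2-fold higher and 1539 (6.47%) at least 2-fold lower. Within these unigenes the lowest of 5 equal parts by level had fewer 2-fold changes than the highest, and the part above the lowest had the most. A low mean with an FPKM of at least 1 in both groups leaves little room for large changes. The low frequency in the lowest part is therefore partly built into this choice of unigenes. Over all 6 libraries 172 (3.61%) were higher and 160 (3.36%) lower in the lowest part, and 189 (3.97%) higher and 300 (6.30%) lower in the highest. Without Z2T1, 431 (9.41%) were higher and 99 (2.16%) lower in the lowest part, and 300 (6.55%) higher and 413 (9.02%) lower in the highest. The upward lean of the lowest part was thus seen without Z2T1 and was close to balance with it.

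Some unigenes were listed only on one side. Without Z2T1, 1033 unigenes were at 0 in all 3 Z2CK libraries and at an FPKM of at least 1 in both Z2T2 and Z2T3, and 62 were at 1 or more in all Z2CK libraries and at 0 in Z2T2 and Z2T3. A value of 0 can also mean that the depth was too low to list the unigene. The 1033 unigenes had a median FPKM of 3.18 in Z2T2 and 2.71 in Z2T3, with highest values of 247 and 276, and 909 of them were DEGs, which follows largely from how they were picked. Z2T1 listed 77 of them (7.45%) above 0. The 62 unigenes had medians of 3.10 to 3.19 in the Z2CK libraries, 52 were DEGs, again by the choice, and 30 (48.4%) were above 0 in Z2T1. With Z2T1 included, the counts were nearly even, at 31 unigenes at 0 in Z2CK and at least 1 in every Z2T library and 32 the other way.

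For the DEGs called without Z2T1, the levels in each library show where Z2T1 lay. The 2429 that were higher had a median FPKM of 0.11, 0.10 and 0.20 in Z2CK1, Z2CK2 and Z2CK3, and of 7.20 in Z2T2 and 7.70 in Z2T3. Their median in Z2T1 was 0.08. The 1209 that were lower had a median FPKM of 30.4, 33.7 and 27.6 in the Z2CK libraries, 8.04 in Z2T2 and 7.58 in Z2T3, and 24.7 in Z2T1. In both sets the median of Z2T1 lay near those of Z2CK and far from those of Z2T2 and Z2T3. In Z2CK, DEGs that were lower had levels above the median of all tested unigenes, 8.35 to 9.42, whereas most DEGs that were higher were near 0.

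Unigene by unigene, this held less closely for the DEGs that were lower. Z2T1 lay within the range of the Z2CK libraries for 1422 (58.5%) of the DEGs that were higher and for 238 (19.7%) of those that were lower. Of the DEGs that were higher, 2173 (89.5%) had a Z2T1 value closer to the mean of Z2CK than to the mean of Z2T2 and Z2T3 on the log2 scale, and 82 (3.38%) reached the lower of Z2T2 and Z2T3. Of the DEGs that were lower, 804 (66.5%) were closer to Z2CK and 192 (15.9%) reached the higher of Z2T2 and Z2T3. With Z2CK placed at 0 and Z2T2 with Z2T3 at 1, the median position of Z2T1 was 0.00 for the former and 0.21 for the latter. These positions share the Z2CK libraries with the call and are a description. For 1761 of the DEGs that were higher and 755 of those that were lower, the fold change over all 6 libraries was still at least 2 in the same direction.

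**Figure D3:**
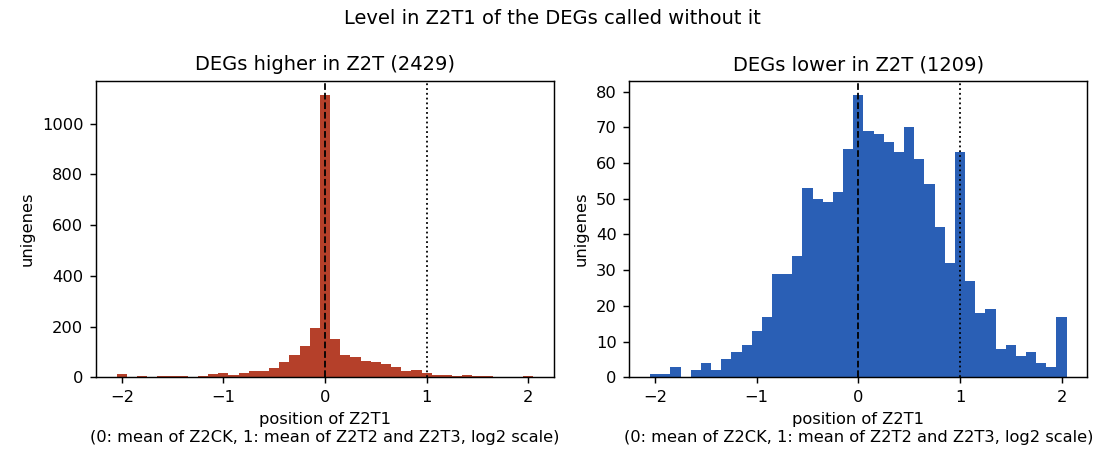
Position of the level in Z2T1 between the mean of Z2CK (0, dashed line) and the mean of Z2T2 and Z2T3 (1, dotted line) on the log2 scale (horizontal axis; values beyond 2 are placed at the edge), counted in unigenes (vertical axis), for the DEGs called without Z2T1. The 2429 DEGs that were higher pile up at 0, where Z2T1 and Z2CK were alike, and the 1209 that were lower spread more widely around a median of 0.21.

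The DEGs called without Z2T1 took up a sizeable part of the expression of a library. Unigenes that were higher held 2.57%, 2.84% and 3.69% of the summed FPKM in Z2CK1, Z2CK2 and Z2CK3, and 13.3% and 12.4% in Z2T2 and Z2T3. They held 3.22% in Z2T1. Unigenes that were lower held 11.5%, 12.3% and 10.1% in the Z2CK libraries, 2.82% and 2.78% in Z2T2 and Z2T3, and 11.8% in Z2T1. The 2 sets thus exchanged their shares between Z2CK and the pair Z2T2 and Z2T3. As the sets were called in these same libraries, the direction of both shifts follows from the choice. Z2CK3 had the highest share of the former and the lowest share of the latter among the Z2CK libraries.

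**Figure D4:**
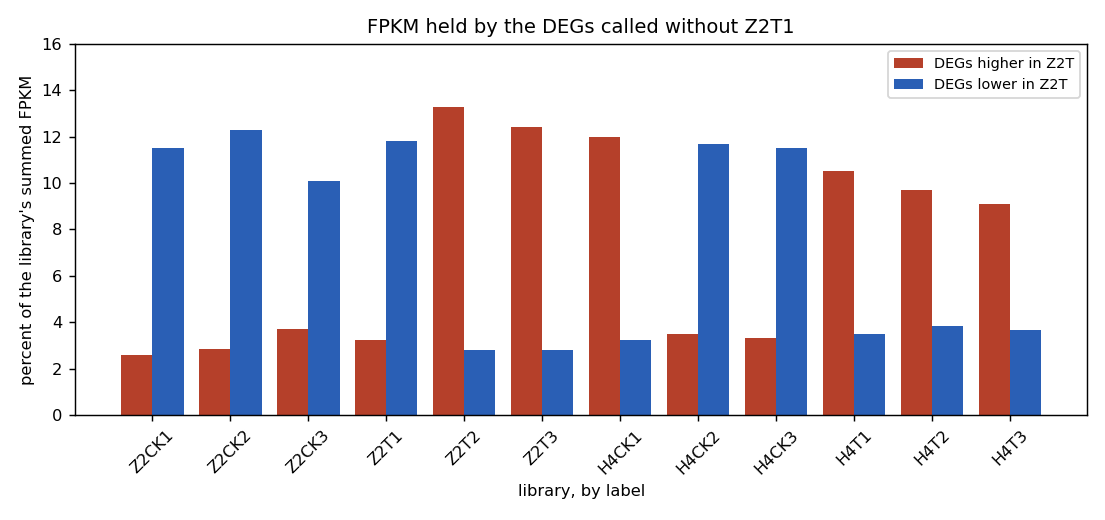
Percent of the summed FPKM of each of the 12 libraries (bars) held by the 2429 DEGs higher and the 1209 DEGs lower in Z2T, both called without Z2T1. Z2T2 and Z2T3 have 13.3% and 12.4% in the former and under 3% in the latter, Z2CK and Z2T1 have the opposite balance, and among H4 libraries H4CK1 and the H4T libraries have the balance of Z2T2 and Z2T3.

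Among the most abundant transcripts, decreases were more frequent than increases. Of the 100 unigenes with the highest mean FPKM in Z2CK, all at 768 or more, 20 were at least 2-fold lower and 5 at least 2-fold higher in Z2T with all 6 libraries. Without Z2T1 the counts were 22 and 7, of which 13 and 6 were DEGs. As these 100 were picked for high values in Z2CK, a lean towards decreases is built into the choice. Of the 100 most abundant unigenes in Z2CK, 71 were also among the 100 most abundant in Z2T, and 61 were so when Z2T was taken as Z2T2 and Z2T3. The 100 held 22.7%, 19.7% and 18.3% of the summed FPKM in the Z2CK libraries, 17.3% in Z2T1, 17.1% in Z2T2 and 16.2% in Z2T3.

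The 20 DEGs with the largest increases without Z2T1 went from near absence to high expression. On log2(FPKM + 1) so large an increase needs a high level in Z2T2 and Z2T3, so that this course follows largely from the choice. Their log2 fold changes ran from 6.95 to 8.63. In Z2T2 their FPKM was between 116 and 1070 with a median of 197, and in Z2T3 between 115 and 854 with a median of 224. In Z2CK1 all 20 were below 1, in Z2CK2 18 were below 1, and in Z2CK3 14 were below 1 while 3 were above 10, up to 17.1. Z2T1 did not exceed 2.92 for any of them. Over all 6 libraries their log2 fold changes were 4.33 to 6.29, with adjusted p from limma between 0.244 and 0.420.

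The 20 DEGs with the largest decreases were strongly expressed in untreated stems, which follows from the choice, since so large a decrease needs a high level in Z2CK. Their median FPKM was 126 in Z2CK1, 222 in Z2CK2 and 91.0 in Z2CK3, against 1.69 in Z2T2 and 2.67 in Z2T3. Z2T1 was between these, with a median of 31.6 and a range from 0 to 555. Their log2 fold changes ran from -7.29 to -4.72 without Z2T1 and from -5.73 to -2.83 over all 6 libraries. In the fit of all 6 libraries their adjusted p from limma ran from 0.0366 to 0.526.

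Of unigenes whose Z2T and Z2CK values did not overlap over all 6 libraries, 562 were DEGs higher and 622 DEGs lower in Z2T without Z2T1. The unigene with the largest increase and that with the highest mean among the former are given here. For TRINITY_DN39340_c0_g1 the Z2CK libraries gave FPKM values of 0.53, 0.13 and 0, and Z2T1, Z2T2 and Z2T3 gave 2.92, 471 and 442. Every Z2T value was above every Z2CK value, but Z2T1 was far below the other Z2T libraries. The log2 fold change was 6.29 over all 6 libraries (standard error 1.86, adjusted p = 0.244 from limma) and 8.57 without Z2T1 (standard error 0.22, adjusted p = 0.000545 from limma).

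TRINITY_DN41899_c4_g1 was among the abundant unigenes before water culture. Its FPKM was 921, 954 and 1024 in Z2CK, 1070 in Z2T1, 3432 in Z2T2 and 2427 in Z2T3. Z2T1 lay just above the Z2CK libraries and under the other Z2T libraries. The log2 fold change was 1.10 over all 6 libraries (standard error 0.48, adjusted p = 0.362 from limma) and 1.58 without Z2T1 (standard error 0.25, adjusted p = 0.0170 from limma). The latter call was lost when Z2CK1, Z2CK2, Z2T2 or Z2T3 was also left out, with adjusted p from limma of 0.0525, 0.0795, 0.138 and 0.0953.

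Both unigenes that were DEGs with all 6 libraries were listed at 0 in every Z2T library, Z2T1 included, so that no fold change is given. The FPKM of TRINITY_DN39176_c1_g1 in the Z2CK libraries was 44.5, 67.2 and 29.0 (adjusted p = 0.0366 from limma, and 0.00253 without Z2T1). That of TRINITY_DN36566_c5_g1 was 25.5, 45.1 and 49.7 (adjusted p = 0.0366 from limma, and 0.00225 without Z2T1). In the fit of all 6 libraries both calls were lost when any 1 library other than Z2T1 was left out, with adjusted p from limma of 0.0822 to 0.228. For these Z2T1 was at 0 like Z2T2 and Z2T3. H4CK2 and H4CK3, which Z2T1 resembled across all unigenes, were at 0 as well, so that this value does not tell these libraries apart. TRINITY_DN41899_c4_g1 and TRINITY_DN39176_c1_g1 each share their Trinity cluster with 4 other unigenes and TRINITY_DN36566_c5_g1 with 7, so that reads may have been split between them and their levels are uncertain.

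**Figure D5:**
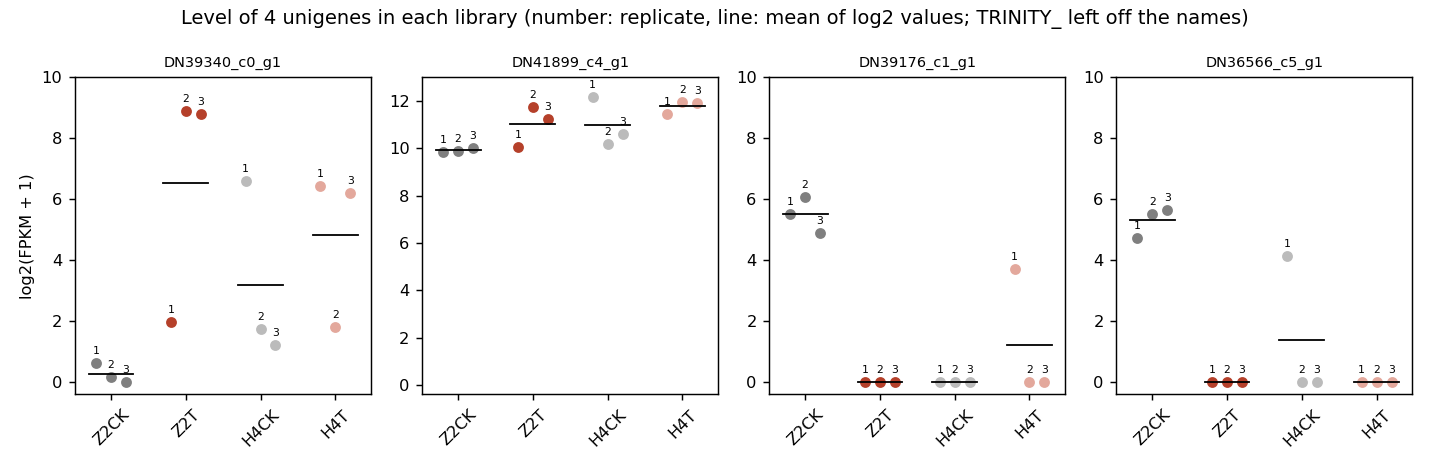
Level of the 4 named unigenes as log2(FPKM + 1) (vertical axis) in each library by group (horizontal axis); points are libraries with their replicate number and lines are group means of the log2 values. Z2T2 and Z2T3 stand far above Z2CK for DN39340_c0_g1 and moderately above it for DN41899_c4_g1 while Z2T1 stays low, and all Z2T libraries are at 0 for DN39176_c1_g1 and DN36566_c5_g1.

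DEGs were also counted by the relation of their transcripts. Trinity gives unigenes assembled from the same group of overlapping reads a common cluster and component number. Of 5339 components with 2 or more tested unigenes, 320 held at least 2 of the DEGs called without Z2T1, 705 of the 3638 DEGs. In 194 of them every DEG was higher in Z2T, in 55 every DEG was lower, and in 71 (22.2%) DEGs of both directions occurred. By cluster number alone, 162 of 513 clusters with at least 2 DEGs (31.6%) held both directions. With most DEGs higher, many components hold a single direction without any relation between their unigenes, and no test was made. One component held 8 DEGs. Unigenes of a component share sequence, so that reads may have been split between them and they are not independent. A component with both directions may hold fragments or similar copies whose values are uncertain.

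The H4 libraries give a comparison that, by label, shares no library with Z2. For the 2429 DEGs higher in Z2T, the median log2 fold change was 1.98 in Z2 without Z2T1 and 1.36 with it. In H4 the median of the same unigenes was 0.32, and 0.73 without the library labelled H4CK1. For the 1209 DEGs that were lower, the medians were -1.57 and -1.15 in Z2, and -0.77 and -1.17 in H4 with and without H4CK1. Since the unigenes were selected on the values of Z2, a larger change in Z2 follows from the choice. Over all tested unigenes the median was -0.04 in Z2 with all 6 libraries and 0.05 in H4 with all 6. A limma fit of all 12 libraries tested whether the changes in the cultivars differed, as an interaction term. This difference was called for 9 of 26,741 unigenes at an adjusted p under 0.05 and a difference of 1 or more on the log2 scale, and for 1030 when Z2T1 and H4CK1 were left out, 797 of them with the higher value in Z2. The filter used the Z2 libraries alone, so that unigenes expressed only in H4 did not enter, and the split by direction is partly set by that. For TRINITY_DN39340_c0_g1 and TRINITY_DN41899_c4_g1 the interaction did not pass in either fit (adjusted p from limma of 0.563 and 0.913 with 12 libraries, and 0.138 and 0.805 without both), which is no evidence of an equal response. TRINITY_DN39176_c1_g1 was at 0 in every H4 library but H4T1, with 12.0, and TRINITY_DN36566_c5_g1 in every H4 library but H4CK1, with 16.8. For both of these the interaction passed without Z2T1 and H4CK1 (adjusted p from limma of 0.0399 and 0.000728) but not with 12 libraries (adjusted p from limma of 0.0988 and 0.376). Both were at 0 in H4CK2 and H4CK3, the untreated H4 libraries of the former fit, so that no fall could be seen in H4. Both were also picked for their fall in Z2, and the interaction is therefore no evidence of a differing response to water culture.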

How the data were processed

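Stem RNA of 12 libraries, 3 for each of Z2CK, Z2T, H4CK and H4T, was sequenced, and the authors deposited 1 table of FPKM values, to 2 decimals, for 66,881 Trinity unigenes. The paper describes mapping to a ramie genome and FPKM from RSEM, but for these unigenes the assembly and the counting are not given in the sources used here. DESeq is named in the submitters' processing notes. Columns were assigned by label, and 0 columns were left unassigned. The values were used as deposited. They are not counts, so limma 3.58.1 (R 4.3.3, variance trend on) was fitted to log2(FPKM + 1) of the 6 Z2 libraries (4 residual degrees of freedom) and of 5 without Z2T1 (3), for the same 26,741 unigenes that reached 1 FPKM in 2 or more of the 6. The fit was tested on simulated data, with the spread of the fit without Z2T1 and with changes set only in more strongly expressed unigenes. That test covered neither a library that stands apart nor changes at low expression. Tables and plots used Python 3.11.15, numpy 2.4.6, pandas 2.3.3 and matplotlib 3.10.9.

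At most 2 unigenes in each direction were named: of the unigenes that were DEGs in both fits and did not overlap over all 6 libraries, the one with the largest change and the one with the highest mean FPKM. With 0 such unigenes that were higher, those that were DEGs without Z2T1 and did not overlap were used. Relative depth was the most frequent ratio of values between 1 and 6 in unigenes above 0 in at most 6 libraries. Alternatives were pseudocounts of 0.1 and 0.01, other filters, 3 scalings, a constant prior variance, all groups in 1 fit with and without H4CK1, array weights, a replicate block and each library left out. A filter asking for an FPKM of at least 1 in a Z2CK library was added after the data were seen. The members, lists and tests were chosen with earlier results of these data known. P-values measure the spread between replicates of pooled plants.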

Additional observations from a re-analysis of the deposited data

Results flagged for a closer look

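Outside the Z2 comparison, the unigenes called higher in Z2T without Z2T1 also took a larger part of the summed FPKM in some H4 libraries than in any Z2CK library, where their share was 2.57% to 3.69%. The share was 12.0% in H4CK1, 10.5% in H4T1, 9.69% in H4T2 and 9.1% in H4T3, against 3.50% in H4CK2 and 3.33% in H4CK3. H4CK1 was thus closer to Z2T2 and Z2T3 than to the other H4CK libraries, and the cause was not tested.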

How the results depend on the processing

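The counts of DEGs depended most on Z2T1. With all 6 libraries, the pairs of DEGs higher and lower in Z2T were 0 and 2 as reported, 5 and 12 with a filter at 3 libraries, 4 and 6 with a constant prior variance, 168 and 229 with all groups in 1 fit, 226 and 298 in that fit without H4CK1, and 2932 and 1556 with array weights. They were 0 and 0 without a filter, after median-of-ratios scaling, after quantile normalization and with the replicate block. By the study's thresholds 3 unigenes passed with all groups in 1 fit and 1 in that fit without H4CK1.

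Without Z2T1, the pairs were 2429 and 1209 as reported, 936 and 509 without a filter, 1029 and 1141 with a filter at 3 libraries, 1762 and 742 with all groups in 1 fit, 90 and 52 with the replicate block, and 835 and 1065 with an FPKM of at least 1 in a Z2CK library, a filter chosen after seeing the data. The filter on Z2CK removed unigenes low in Z2CK by construction. The filter at 3 libraries removed, also by construction, unigenes at 1 or more only in Z2T2 and Z2T3. It kept those at 1 or more only in the 3 Z2CK libraries. The count of 72 by the study's thresholds fell to 0 with either smaller pseudocount, without a filter, with either other filter and with the replicate block, and rose to 120 with a constant prior variance and 613 with all groups in 1 fit without H4CK1. Where no construction is named, the cause was not tested.

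At any p, the unigenes at least 2-fold higher and lower with all 6 libraries numbered 4192 and 3908 with a pseudocount of 0.01, 3491 lower with 0.1, 8607 higher without a filter, and 1420 higher and 1666 lower with a filter at 3 libraries, where the direction turned. Without Z2T1 they were 3746 lower with 0.01, 3509 lower with 0.1, 12,725 higher without a filter and 2180 higher with a filter at 3 libraries. The 2-fold unigenes in the lowest part by level, 1360 with all 6 libraries and 1746 without Z2T1, became 3361 and 3665 with a pseudocount of 0.1, 3966 and 4521 with 0.01, 0 and 0 without a filter, and 716 and 976 with a filter at 3 libraries. Those in the highest part, 533 and 810, became 1004 and 1524 without a filter. Smaller pseudocounts raise changes at low levels, and without a filter the lowest part holds only unigenes near 0, by construction. Non-overlapping unigenes that were higher numbered 3633 after quantile normalization with all 6 libraries. Without Z2T1 and with a filter at 3 libraries they were 5476 higher and 6119 lower, again turned.

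With 1 library left out of all 6, the DEGs ranged from 0 to 2429 higher and from 0 to 1209 lower, with 0 to 72 by the study's thresholds. The non-overlapping unigenes ranged from 2672 to 7201 higher and from 4398 to 6373 lower, the highest in each case without Z2T1, and 3788 higher without Z2CK3. The 2-fold unigenes in the highest part ranged from 460 to 810. With 1 further library left out after Z2T1, DEGs ranged from 1159 to 2442 higher and from 187 to 1176 lower, and from 0 to 595 by the study's thresholds. The 2-fold counts, 1995 to 4301 over both sets of libraries, stayed within 1.5 times their reported values.

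The replicate numbers are shared between Z2CK and Z2T, but the labels do not say that a number marks a shared plant or day. The deviations of same-numbered libraries from their group means correlated at 0.009, -0.11 and 0.121, so the numbers were not taken to pair the libraries. The fit with the replicate block left 1 residual degree of freedom without Z2T1. Of the named unigenes, TRINITY_DN39340_c0_g1 kept its call without Z2T1 under each alternative that tested it (adjusted p from limma of 0.000315 to 0.0483), and it did not pass the filter on Z2CK. TRINITY_DN36566_c5_g1 kept its call under each (3.1e-05 to 0.0483). TRINITY_DN41899_c4_g1 had adjusted p from limma of 0.003 to 0.183 and also lost its call without a filter, with all groups in 1 fit and with the replicate block, and TRINITY_DN39176_c1_g1 ranged from 0.00158 to 0.0591, the highest with the replicate block.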

Other observations

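The 1033 unigenes at 0 in Z2CK and at an FPKM of at least 1 in Z2T2 and Z2T3 were unevenly listed in H4. They were above 0 for 66.4% in H4CK1, for 8.62% and 6.97% in H4CK2 and H4CK3, and for 28.8%, 35.1% and 33.1% in H4T1, H4T2 and H4T3. Of the 62 unigenes that were at 0 in Z2T2 and Z2T3 instead, 27.4% to 38.7% were above 0 in the H4T libraries and 35.5% to 54.8% in the H4CK libraries.

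The 20 unigenes with the largest increases in Z2 without Z2T1 were all at an FPKM of 10 or more in H4CK1, with a median of 103, and none was so in H4CK2 or H4CK3. In H4T1, H4T2 and H4T3, 17, 9 and 16 of the 20 reached 10, with medians of 52.7, 9.36 and 37.9. The 20 with the largest decreases had a median FPKM of 170 in H4CK3, 8.61 in H4CK2 and 2.73 in H4CK1, and of 3.68 to 7.81 in the H4T libraries, so that the H4CK libraries differed widely among themselves for these unigenes.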
